A study of Sus scrofa with 16 samples.

Results

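PGAM2, TPI1 and FBP1 are 3 enzyme genes of sugar metabolism, taken by name from the 3875 genes counted in cultured myogenic satellite cells (SCs) of piglets. They were chosen by their measured differences between DMD and WT SCs in the same counts. For this reason their levels are given as a description, with no test between groups. Of these genes, TPI1 held 16066 counts over all libraries, PGAM2 held 5060 and FBP1 held 158.

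SCs are the stem cells of skeletal muscle. The DMD piglets carry a deletion of exon 52 of the dystrophin gene, a model of Duchenne muscular dystrophy, and the WT piglets are their age-matched controls. All animals were male and 3 days old. Their SCs were enriched from muscle by magnetic sorting, which removed cells with CD31 or CD45 (surface proteins of endothelial and blood cells) and then kept cells with NCAM1, M-cadherin or ITGB1, and grown to passage 6, so that they are cultured cells and not SCs in tissue. In DIFF, the cells were held in medium with 5% horse serum to induce myogenic differentiation, for 10 days according to the sequencing methods and 7 days according to the culture methods. In PROL, they were grown in medium with 20% fetal bovine serum and basic fibroblast growth factor. The groups are DMD DIFF, DMD PROL, WT DIFF and WT PROL, with 4 libraries each, and each of the 4 DMD and 4 WT animals gave 1 library per state. Differentiation therefore coincides with a change of serum, time in culture and growth factor, and these cannot be told apart.

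Glycolysis splits glucose into pyruvate and yields ATP without oxygen, and contracting skeletal muscle relies on it for short bursts of work. TPI1 encodes triosephosphate isomerase, which interconverts the 2 triose phosphates made when the sugar is split, so that both can go on through the pathway. PGAM2 encodes the muscle form of phosphoglycerate mutase, which moves the phosphate group within phosphoglycerate near the end of the pathway, and its loss in people causes a muscle glycogen storage disease. FBP1 encodes fructose-bisphosphatase, which runs the opposite way to phosphofructokinase in gluconeogenesis, the synthesis of glucose, and is best known from liver and kidney. A separate gene, FBP2, encodes the muscle form of this enzyme. In bulk RNA as used here, fewer cells of a type and less RNA per cell cannot be told apart.

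Library totals ran from 1110050 to 1781174 counts, with medians of 1461363 in DMD DIFF, 1580606 in DMD PROL, 1624003 in WT DIFF and 1307695 in WT PROL. The ribosomal RNA gene RN18S took 6.32% to 11.7% of the counts in 15 libraries and 20.4% in DMD PROL replicate 4, which stands apart in this measure. Levels below are CPM, counts scaled to a common library size with TMM factors, which correct for libraries in which a few genes take many reads. Libraries were made from the 3′ ends of polyadenylated RNA, so that a transcript gives 1 tag whatever its length.

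PGAM2 transcripts stood many times higher in DMD than in WT in either state. In DMD DIFF the 4 libraries held 469, 374, 367 and 433 CPM of PGAM2. In DMD PROL they held 440, 296, 350 and 227 CPM. In WT DIFF they held 68.8, 56.0, 55.6 and 80.3 CPM, and in WT PROL 14.6, 19.9, 20.6 and 21.5 CPM. The lowest DMD library, DMD PROL replicate 4, lay above the highest WT library by a wide margin, and it is also the library rich in RN18S.

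Mean PGAM2 levels were 411 ± 48.7 CPM in DMD DIFF, 328 ± 90.2 in DMD PROL, 65.2 ± 11.8 in WT DIFF and 19.2 ± 3.14 in WT PROL (SD, n = 4 each). The means thus differed 6.30-fold between DMD DIFF and WT DIFF and 17.1-fold between DMD PROL and WT PROL. The fitted log2 fold changes of PGAM2, DMD over WT, were 2.65 in DIFF and 4.08 in PROL. From highest to lowest the order was DMD DIFF, DMD PROL, WT DIFF and WT PROL. The libraries of DMD DIFF and DMD PROL overlapped, while each of the other neighbours in this order was separated without overlap.

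Differentiation went with a larger relative change of PGAM2 in WT than in DMD. Within each WT animal, PGAM2 was higher in DIFF than in PROL, by 2.24, 1.495, 1.43 and 1.90 on the log2 scale. Within the DMD animals the same differences were 0.09, 0.34, 0.07 and 0.93. The mean levels differed 3.40-fold between WT DIFF and WT PROL and 1.25-fold between DMD DIFF and DMD PROL. The difference of the fitted state changes, DMD minus WT, was -1.44 on the log2 scale. With library size alone as the scale, the DMD differences were -0.03, 0.19, -0.06 and 1.01, so that replicates 1 and 3 changed sign and replicate 4 held most of the change. All 4 WT animals remained higher in DIFF on this scale, by 1.09 to 1.87.

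**Figure D1:**
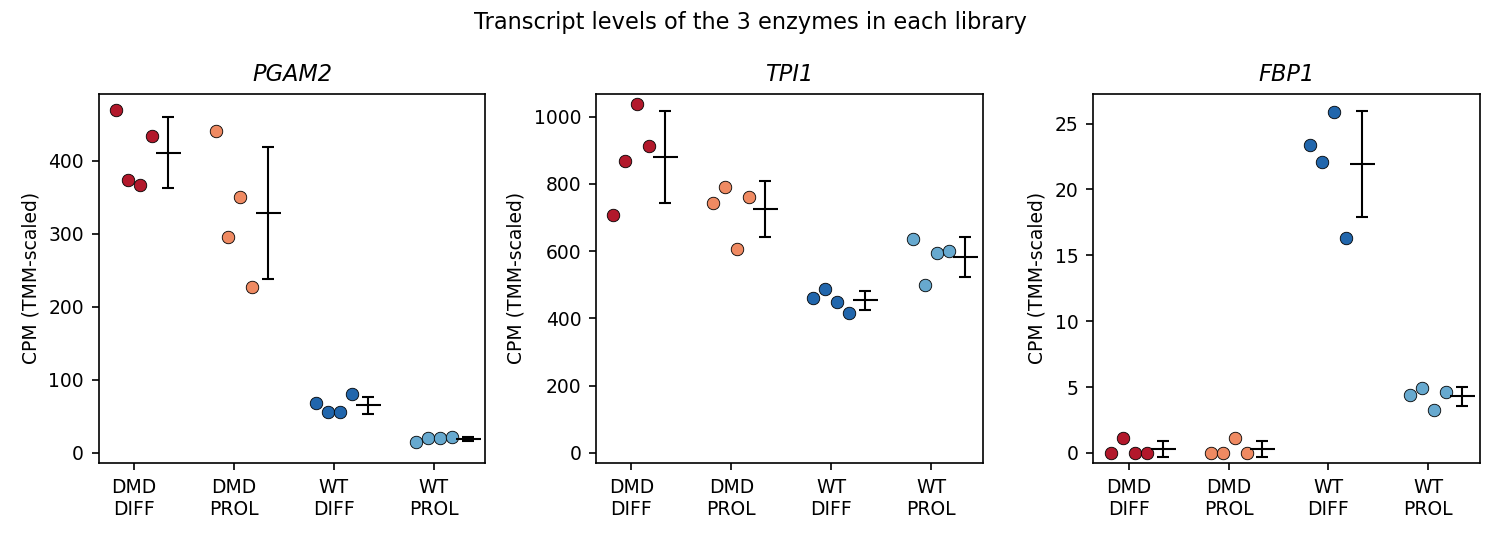
Each point is 1 library, with CPM on the vertical axis and the 4 groups on the horizontal axis, and the bars beside the points are the mean and SD of 4 libraries. PGAM2 lay at 227 to 469 CPM in DMD and 14.6 to 80.3 CPM in WT libraries, TPI1 separated DMD from WT libraries in DIFF but not in PROL, and FBP1 reached 16.3 to 25.9 CPM in WT DIFF and was at or near 0 in DMD.

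TPI1 was an abundant transcript in all groups and differed far less. In DMD DIFF the libraries held 706, 869, 1038 and 912 CPM of TPI1, and in DMD PROL 743, 790, 605 and 762 CPM. In WT DIFF they held 461, 486, 449 and 417 CPM, and in WT PROL 635, 498, 594 and 600 CPM. Every DMD DIFF library lay above every WT DIFF library, whereas DMD PROL replicate 3 lay within the range of WT PROL.

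Mean TPI1 levels were 881 ± 137 CPM in DMD DIFF, 725 ± 82.2 in DMD PROL, 453 ± 28.9 in WT DIFF and 582 ± 58.8 in WT PROL (SD, n = 4 each). The ratio of DMD to WT means was 1.94 in DIFF and 1.25 in PROL, and the fitted log2 fold changes were 0.95 and 0.31. The PROL value of TPI1 was 0.16 with library size alone as the scale. TPI1 ran from DMD DIFF through DMD PROL and WT PROL to WT DIFF. Neighbours overlapped except for WT PROL and WT DIFF.

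TPI1 means of DIFF and PROL stood in opposite order in the 2 genotypes. In WT all 4 animals were lower in DIFF than in PROL, by -0.46, -0.03, -0.40 and -0.53 on the log2 scale, although replicate 2 differed by little. In DMD the differences were -0.07, 0.14, 0.78 and 0.26, so that 3 of 4 animals were higher in DIFF. On library size alone the DMD differences were -0.19, -0.02, 0.65 and 0.34, and the WT ones ran from -0.88 to -0.44. The ratio of DIFF to PROL means was 1.22 in DMD and 0.779 in WT, and the difference of the fitted state changes, DMD minus WT, was 0.64 on the log2 scale.

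**Figure D2:**
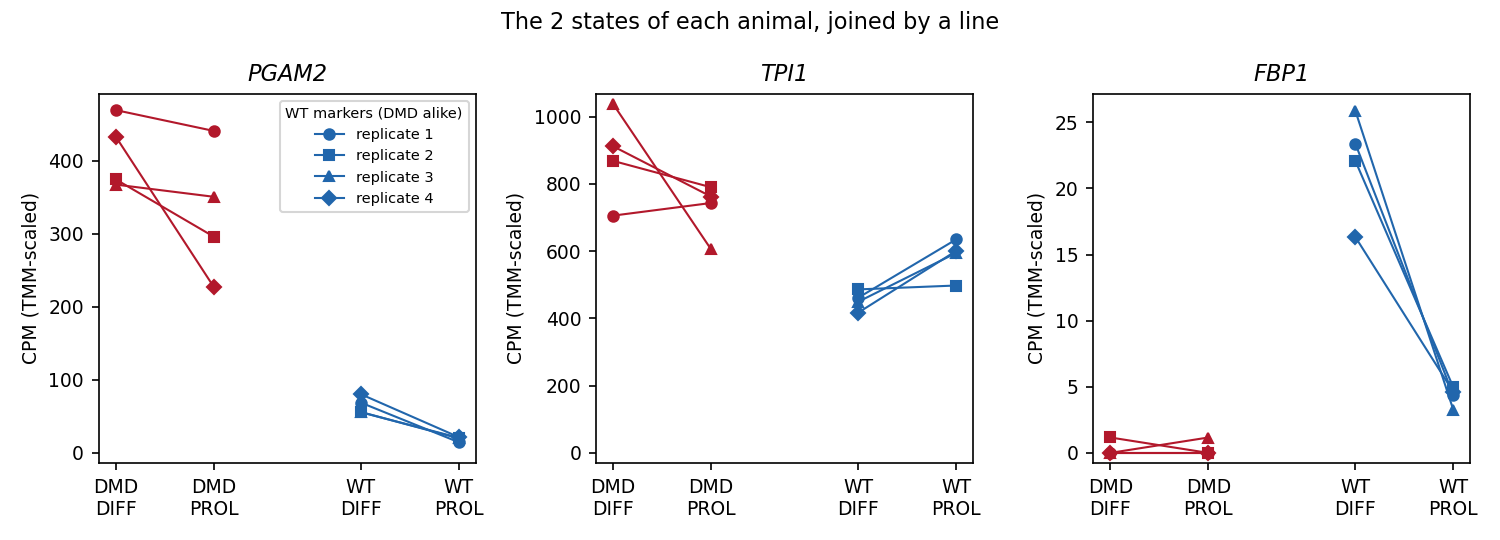
Lines join the DIFF and PROL libraries of 1 animal, with CPM on the vertical axis, DMD in red and WT in blue, and 1 marker shape per replicate number. For PGAM2 and FBP1 all WT lines fall from DIFF on the left to PROL on the right, whereas TPI1 lines of WT climb and 3 of 4 TPI1 lines of DMD fall.

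FBP1 was counted almost only in WT cultures. The WT DIFF libraries held 34, 30, 40 and 24 counts of FBP1, and the WT PROL libraries 6, 8, 6 and 6 counts. Among the DMD libraries, DMD DIFF replicate 2 and DMD PROL replicate 3 held 2 counts each, and the other 6 held none. No DMD library reached the level of any WT library of the same state.

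For FBP1 the pooled counts were 2 in DMD DIFF against 128 in WT DIFF, a level 59.7-fold lower in DMD with a counting interval from 16.2 to 498 (exact, 95%). In PROL they were 2 in DMD against 26 in WT, 15.2-fold lower with an interval from 3.81 to 132. These intervals cover counting error only. Every deposited value is an even number, and taking each pair of counts as a single molecule widens the intervals to 10.3 to 2393 in DIFF and 2.29 to 647 in PROL. Without DMD DIFF replicate 2, the only library of its group with counts, the DMD libraries of that state held 0 counts. Allowing 3 counts over them gives a level 28.2-fold lower than in WT DIFF, or 14.1-fold with halved WT counts. Without DMD PROL replicate 3, the corresponding values were 7.54-fold and 3.77-fold. Since the library with counts was left out, these values are no lower bounds for the whole DMD group.

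Within WT, FBP1 was at 21.9 ± 4.04 CPM in DIFF and 4.302 ± 0.737 CPM in PROL (SD, n = 4 each), a ratio of 5.10. Each WT animal was higher in DIFF, by 2.42, 2.15, 2.99 and 1.82 on the log2 scale. The pooled counts per total count gave a ratio of 4.03, with a counting interval from 2.63 to 6.40. In DMD both states held 2 counts, and their ratio of 1.03 has a counting interval from 0.0744 to 14.2, so that no change of FBP1 with differentiation was detectable at this depth. The 2 DMD groups overlapped, and WT DIFF, WT PROL and DMD were separated from each other.

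FBP1 passed the filter on low counts only in the fits that include WT DIFF. There its fitted log2 fold change was -5.72 for DMD over WT in DIFF and 2.32 for DIFF over PROL in WT. The difference of the fitted state changes, -2.25, rests on 2 counts in each DMD group and turned to 0.31 without DMD replicate 3. PGAM2 and TPI1 passed the filter in every fit.

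FBP2, the muscle form of the FBP1 enzyme, held 10 counts in all, of which DMD PROL replicate 1 held 6. In DMD DIFF, where FBP1 had 2 counts, FBP2 had none in any library. FBP1 and FBP2 lie next to each other in the Sscrofa11.1 RefSeq gene order, and reads were not checked for a split between them.

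Technical duplicates set the measuring error of these levels. The SD of log2 PGAM2 levels was 0.28 between the 2 duplicates of a library and 0.32 between animals of a group. For TPI1 it was 0.20 between duplicates and 0.16 between animals. The SD between animals was taken on the mean of the 2 duplicates, so that the 2 kinds of SD are not like measures. The SD of TPI1 between duplicates leans on DMD PROL replicate 4, the library rich in RN18S. There TPI1 read 936 CPM in the second duplicate and 492 CPM in the first, a ratio of 1.90, against 0.789 to 1.20 in the other libraries. The ratio of 1.90 exceeds that of 1.25 between the DMD PROL and WT PROL means of TPI1, whose log2 value was 0.29 without DMD PROL replicate 4. FBP1 in WT DIFF gave 90 counts in the second duplicates and 38 in the first, and it was higher in the second in all 4 libraries. Scaled by their totals, the second duplicates read 2.18-fold higher than the first. The counting interval ran from 1.48 to 3.27 and widened to 1.25 to 3.94 with halved counts. In WT PROL, replicate 2 held 8 FBP1 counts in the first duplicate and 0 in the second, and replicate 4 held 0 and 6.

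As shares of the counts of 11 genes for steps of glycolysis, PGAM2 made up 4.44% to 7.12% in DMD DIFF, 2.47% to 5.19% in DMD PROL, 1.21% to 1.94% in WT DIFF and 0.227% to 0.339% in WT PROL. TPI1 made up 10.7% to 12.6% in DMD DIFF, 7.47% to 9.73% in DMD PROL, 9.41% to 10.7% in WT DIFF and 7.59% to 9.88% in WT PROL. The share of PGAM2 thus separated all DMD from all WT libraries, and that of TPI1 did not.

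The other genes of glycolysis and gluconeogenesis were taken from a list of the pathway. Of 31 listed genes, 16 are in the table, and without PGAM2, TPI1 and FBP1 there were 13, of which 8 passed the filter in each comparison. Listed isozymes such as PGAM1, ENO1, ALDOA and PKM had no row matched by symbol and were not analysed here. The shares of glycolysis counts above leave them out. Calls required an edgeR adjusted p under 0.05 together with a log2 fold change beyond 0.6 in either direction. In DIFF, 5 of the 8 were called higher in DMD and 0 lower by edgeR, 5 and 0 by DESeq2, and 0 were lower at an unadjusted p under 0.05. The 8 genes had a median log2 fold change of 0.73 against -0.03 over all genes tested. Over all genes, 33.6% were called in this comparison, 16.1% higher and 17.5% lower. In PROL, 1 of the 8 was called higher and 0 lower by edgeR and by DESeq2, and 3 higher and 0 lower reached an unadjusted p under 0.05. The median was 0.04 against -0.00, and 18.2% of all genes were called, 8.36% higher and 9.87% lower.

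The 5 genes higher in DMD DIFF take part in steps below the entry of glucose. ENO3, the muscle enolase that acts just after phosphoglycerate mutase, was the gene called in both states. ENO3 libraries held 62.6 to 115 CPM in DMD DIFF and 8.84 to 38.1 CPM in WT DIFF, a difference of 1.90 on the log2 scale (edgeR SE 0.409, adjusted p = 0.00264). In PROL they held 533 to 971 CPM in DMD and 173 to 230 CPM in WT, a difference of 2.09 on the log2 scale (edgeR SE 0.188, adjusted p = 1.66e-05). The DMD and WT libraries of ENO3 did not overlap in either state.

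ALDOC, an aldolase that makes the triose phosphates used by TPI1, was at 31.8 ± 9.46 CPM in DMD DIFF and 8.27 ± 2.55 CPM in WT DIFF (SD, n = 4 each; log2 fold change 1.93, edgeR adjusted p = 0.000197). GAPDH, the dehydrogenase that acts just after TPI1, was at 4034 ± 365 CPM in DMD DIFF and 2494 ± 236 CPM in WT DIFF (log2 fold change 0.69, edgeR adjusted p = 2.77e-05). PGK1, the kinase between GAPDH and phosphoglycerate mutase, was at 1307 ± 235 CPM in DMD DIFF and 759 ± 65.0 CPM in WT DIFF (log2 fold change 0.78, edgeR adjusted p = 4.12e-05). PCK2, the mitochondrial enzyme that makes phosphoenolpyruvate for gluconeogenesis, was at 50.0 ± 9.29 CPM in DMD DIFF and 21.1 ± 5.19 CPM in WT DIFF (log2 fold change 1.24, edgeR adjusted p = 0.000553).

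Genes of the first steps were not called in either genotype comparison. These were HK1, which phosphorylates glucose, GPI, which turns glucose phosphate into fructose phosphate, and PFKM, the muscle phosphofructokinase. Their log2 fold changes, DMD over WT, lay between -0.17 and 0.19 in DIFF and between -0.14 and 0.27 in PROL. HK2, PGK2, FBP2, PCK1 and PC were too low to test.

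**Figure D3:**
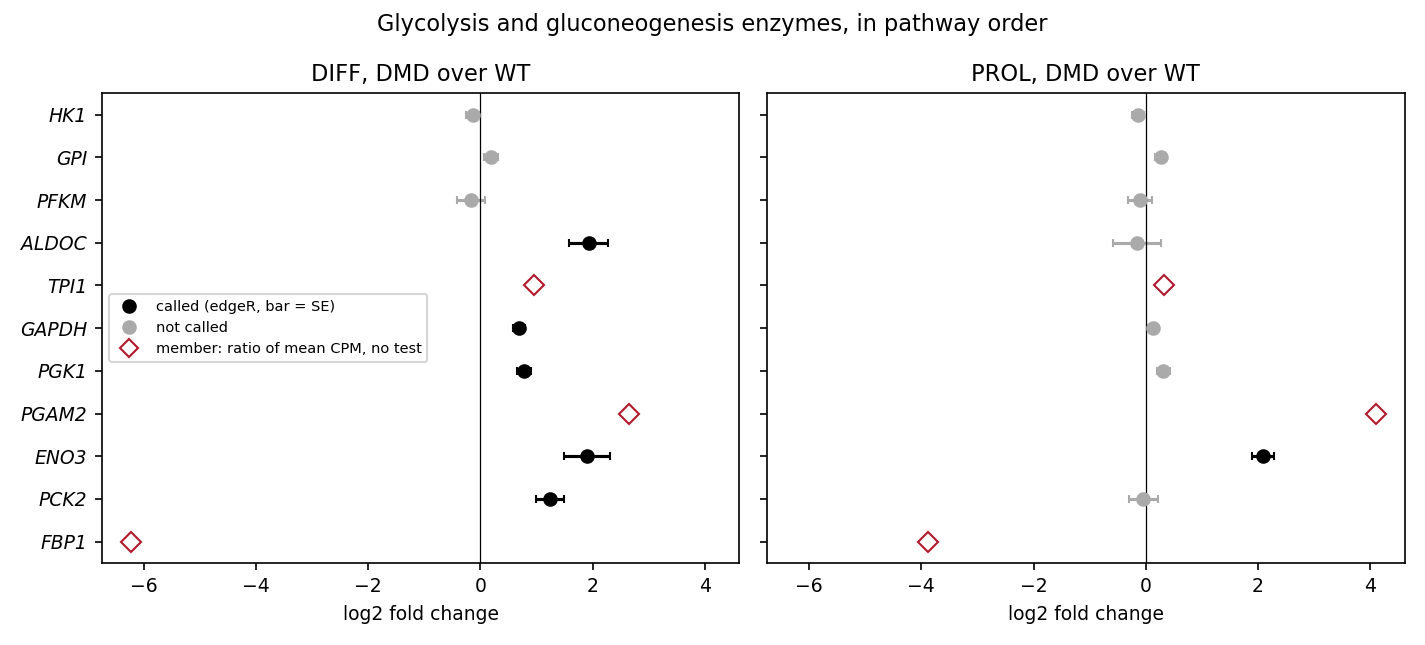
Enzymes are listed in pathway order, with the log2 fold change of DMD over WT on the horizontal axis, DIFF on the left and PROL on the right. Circles are edgeR estimates with their SE, black where called, and open diamonds are log2 ratios of mean CPM for PGAM2, TPI1 and FBP1, of which the FBP1 values rest on 2 DMD counts per state. HK1, GPI and PFKM lie near 0 in both panels, and in DIFF the estimates from ALDOC to PCK2 lie above 0.

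The state comparisons called other members of the list. In DMD, ALDOC was called higher in DIFF than in PROL and ENO3 lower, 2 of 8 genes and a share close to the background. Of all genes, 28.4% were called in DMD, 16.0% higher and 12.4% lower. In WT, GAPDH, ENO3 and PCK2 were called lower, 3 of 8 genes, and 0 higher by edgeR and by DESeq2. In either direction this share is close to the 32.2% of all genes called in WT, 17.9% higher and 14.3% lower. HK1 had nearly the same log2 change in both genotypes, 0.47 in DMD (edgeR adjusted p = 0.00504) and 0.46 in WT (edgeR adjusted p = 0.00186), below the size set for a call. At an unadjusted p under 0.05, 3 genes were higher and 2 lower in DMD, and 1 higher and 3 lower in WT. ENO3 fell in both genotypes, with log2 fold changes of -3.40 in DMD (edgeR adjusted p = 1.63e-05) and -3.22 in WT (edgeR adjusted p = 0.000125). PGAM2, the muscle isozyme of the step before it, was higher in DIFF in each WT animal. The log2 ratio of PGAM2 to ENO3 counts within a library ran from 2.03 to 2.79 in DMD DIFF and -2.03 to -0.61 in DMD PROL. In WT it ran from 1.03 to 2.84 in DIFF and -3.57 to -3.13 in PROL.

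The change with differentiation was called different between the genotypes for 2 of the 8 genes, a share close to the background. Of all genes, 23.5% were called, 10.6% with a positive difference of DMD minus WT and 12.9% with a negative one. For ALDOC the state change in DMD minus that in WT was 2.09 on the log2 scale (edgeR adjusted p = 0.00579), with 1.59 in DMD and -0.51 in WT. For PCK2 it was 1.28 (edgeR adjusted p = 0.0105), with 0.19 in DMD and -1.10 in WT. GAPDH showed a difference of 0.56 (edgeR adjusted p = 0.00441), which is below the size set for a call.

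Genes that branch from the pathway were mixed, and their lists were also chosen with results of these data known. Of 9 tested genes of lactate and pyruvate use in DIFF, LDHA and PDK1 were called higher in DMD and PDK4 lower, 3 of 9 genes where 33.6% of all genes were called, a share close to the background. LDHA makes lactate from pyruvate, and PDK1 and PDK4 switch off pyruvate dehydrogenase. Their log2 fold changes were 1.48 (edgeR adjusted p = 4.17e-05), 2.51 (edgeR adjusted p = 1.36e-07) and -5.25 (edgeR adjusted p = 3.39e-07). The log2 ratio of LDHA to LDHB within a library was 1.12 to 2.10 in DMD DIFF and 0.58 to 1.04 in DMD PROL, and -0.70 to -0.13 in WT DIFF and 0.80 to 1.44 in WT PROL. WT DIFF was thus the only group with more counts of LDHB than of LDHA.

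In PROL, where 18.2% of all genes were called, 1 of 8 tested genes of that list was called, BRP44L, an older name of the mitochondrial pyruvate carrier MPC1, at a log2 fold change of 0.66 that was 0.52 and not called on library size alone. The same background shares, 33.6% in DIFF and 18.2% in PROL, stand beside the small lists that follow. Of 5 tested glycogen genes, GYS1 (glycogen synthase, 1.61) and PHGK (a subunit of phosphorylase kinase, 1.31) were called higher in DMD DIFF and UGP2 (which makes UDP-glucose, -0.74) lower. The UGP2 call was lost on library size alone, at -0.60. In PROL only PYGL, a glycogen phosphorylase, was called, at -0.83. Of 3 pentose phosphate genes, TKT (transketolase) was called lower in DMD in both states, at -0.79 in DIFF and -0.87 in PROL, and RPIA lower in DIFF, at -1.98.

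Of 2 tested serine synthesis genes, PSPH was called higher in DMD DIFF at 1.39, and none was called in PROL. Of 2 tested genes of triose and glycerol use, the aldehyde dehydrogenase ALDH2 was called lower in DMD DIFF at -2.78, and none in PROL. The glucose transporter SLC2A4 had 0 counts in all 16 libraries, which allows a level of up to 0.123 CPM, and the phosphagen genes and the regulator PFKFB1 were too low to test.

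Skeletal muscle markers moved with PGAM2. The SC marker PAX7 was not analysed here. Of 14 markers in the table, 11 of 11 tested were called higher in DMD DIFF and 10 of 10 in DMD PROL. Their summed level was 19573 to 23560 CPM in DMD DIFF, 5987 to 9790 in DMD PROL, 3048 to 5353 in WT DIFF and 304 to 429 in WT PROL, the same order of groups as PGAM2. TCAP was at 0 in WT PROL and no marker was at 0 in all libraries of another group. DMD DIFF lay above DMD PROL without overlap in this sum, which PGAM2 did not. The part of differentiated muscle cells in the PGAM2 difference was not tested.

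DES, which encodes the muscle intermediate filament desmin, had the pattern most like PGAM2. The measure was the root mean square difference of log2 CPM, centred over 16 libraries, among 1541 genes with at least 20 CPM on average, where the median gene differed from PGAM2 by 1.83. DES differed from PGAM2 by 0.31, the troponin subunit gene TNNI1 by 0.55, CIDEA by 0.55, the transcription factor gene MEF2C by 0.56 and the troponin subunit gene TNNC1 by 0.58. The log2 ratio of PGAM2 to DES was -2.58 to -1.94 in DMD DIFF, -2.44 to -1.41 in DMD PROL, -2.26 to -1.88 in WT DIFF and -2.04 to -1.75 in WT PROL. The groups overlapped in this ratio. Since DES was picked for its likeness to PGAM2 over these same libraries, the overlap follows from the choice and adds nothing to it.

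The genes most like TPI1 by the same measure included PGK1, which encodes the kinase 2 steps after it. PGK1 differed from TPI1 by 0.17, SRFBP1 by 0.18, PPP1CB by 0.19, TMSB10 by 0.19 and LOC654323 by 0.19, where the median gene differed by 0.55. The log2 ratio of TPI1 to PGK1 was -0.63 to -0.53 in DMD DIFF and -0.79 to -0.20 in DMD PROL. In WT it was -0.89 to -0.56 in DIFF and -0.69 to -0.25 in PROL. All groups overlapped, which again follows from picking PGK1 for its likeness to TPI1 in these libraries. Since the table does not show how reads of near-identical copies were assigned, the levels of TPI1, GAPDH and PGK1, which have pseudogenes in mammals, are uncertain to that extent.

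Fibroblast markers, like FBP1, were mostly lower in DMD than in WT within each state. Of 7 such markers in the table, 6 of 7 tested were called lower in DMD DIFF and 5 of 6 in DMD PROL, and none was at 0 in any group. Their summed level was 12336 to 14634 CPM in DMD DIFF, 4546 to 4957 in DMD PROL, 31337 to 35263 in WT DIFF and 10559 to 14282 in WT PROL. DMD DIFF and WT PROL overlapped in this sum, and FBP1 was at 0 to 1.17 CPM in DMD DIFF and 3.26 to 4.96 CPM in WT PROL. COL1A2, not called in DIFF, averaged 9100 CPM in DMD DIFF, where the mean sum was 13521 CPM. DCN was at 305 to 452 CPM in DMD DIFF and 1345 to 2096 CPM in WT PROL. In mean level POSTN, LUM and SFRP2 were also lower in DMD DIFF than in WT PROL, while COL1A2, COL3A1 and THY1 were not. Between the DMD states the marker sum was higher in DIFF than in PROL, while FBP1 had 2 counts in each. The ratio of these FBP1 counts has a counting interval from 0.0744 to 14.2, too wide to compare with the change in the sum. In both WT states the fibroblast sum lay above the sum of the 14 muscle markers, 3048 to 5353 CPM in DIFF and 304 to 429 in PROL. In both DMD states it lay below the muscle sum, 19573 to 23560 CPM in DIFF and 5987 to 9790 in PROL. Which cells of the cultures held FBP1 transcripts cannot be told from bulk RNA. The part of fibroblast-like cells in the FBP1 difference was not tested.

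**Figure D4:**
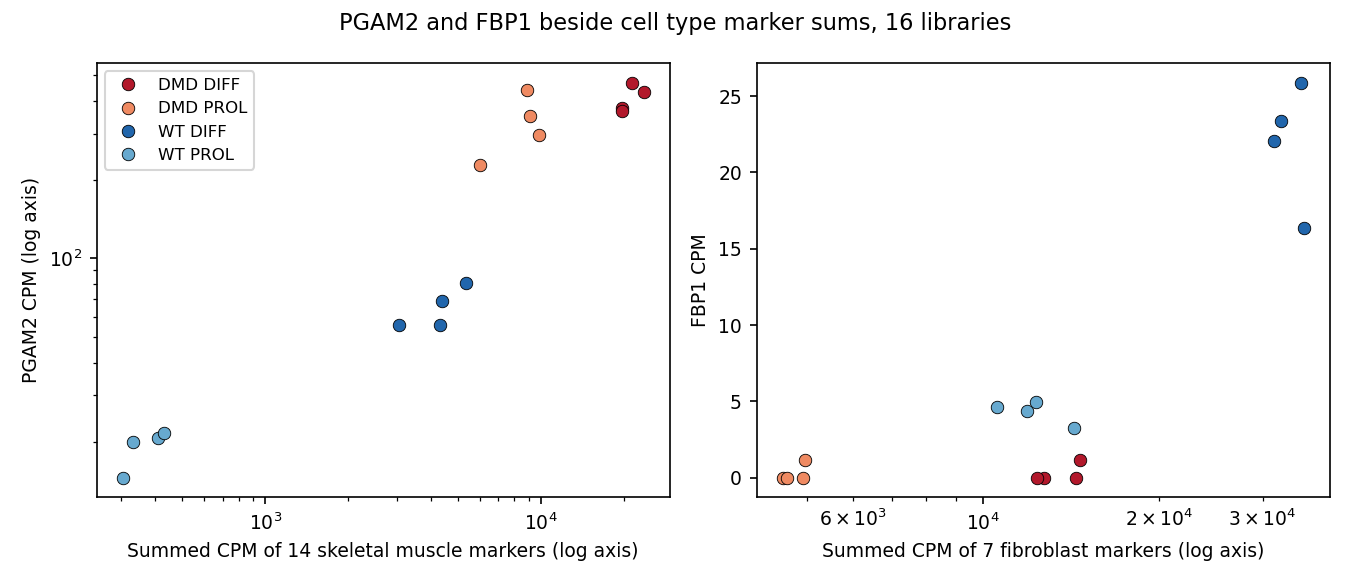
Each point is 1 of 16 libraries, with summed marker CPM on the horizontal axes and the CPM of PGAM2 or FBP1 on the vertical axes. PGAM2 is lowest in WT PROL, where the muscle marker sum is 304 to 429 CPM, and the DMD DIFF and WT PROL libraries share a range of fibroblast marker sums while FBP1 stays at or below 1.17 CPM in DMD DIFF.

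Markers of blood, liver and kidney, fat and endothelial cells summed to less than those of muscle and fibroblasts in every group. In WT PROL, however, the 3 endothelial markers summed to 107 to 134 CPM and the 14 muscle markers to 304 to 429 CPM. Most of this endothelial sum, 125 CPM on average in WT PROL, was ERG at 105 CPM. PECAM1 averaged 19.8 CPM there, and VWF had 0 counts. The sort before culture was designed to remove blood and endothelial cells. Macrophage and blood markers, 4 in the table, summed to 30.8 to 35.6 CPM in DMD DIFF, 33.2 to 53.5 in DMD PROL, 58.9 to 71.5 in WT DIFF and 44.6 to 84.7 in WT PROL. Of the 2 tested, CD14 was called lower in DMD in both states, at -1.40 in DIFF and -0.71 in PROL, and TYROBP was not called, at 0.91 in DIFF and 0.20 in PROL. The 3 liver and kidney tubule markers summed to 4.13 to 17.7 CPM over all libraries. The 4 adipocyte markers summed to 2.17 to 23.6 CPM, with ADIPOQ and LPL at 0 in every group. The 3 endothelial markers summed to 13.5 to 49.0 CPM in DMD and 60.5 to 134 CPM in WT, and both tested ones were called lower in DMD in either state. The part of these cells in the FBP1 difference was not tested.

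Of the 3 smooth muscle markers, all were called higher in DMD DIFF, where they summed to 15800 to 20374 CPM against 1505 to 3469 CPM in WT DIFF. In PROL they summed to 1848 to 2372 CPM in DMD and 1915 to 3107 CPM in WT, and CNN1 was called lower in DMD. The 5 proliferation genes summed to 466 to 615 CPM in DMD DIFF, 2070 to 2147 in DMD PROL, 483 to 541 in WT DIFF and 1641 to 1850 in WT PROL. In each state 1 of the 5 was called in DMD over WT, CCNA2, which was higher in DMD. Over all genes, 33.6% were called in DIFF and 18.2% in PROL. In DIFF the CCNA2 libraries overlapped, at 7.20 to 31.5 CPM in DMD and 5.50 to 15.5 CPM in WT (edgeR adjusted p = 0.0456). The uncalled proliferation genes had log2 fold changes from -0.64 (CDK1) to 0.77 (CCNB1) in DIFF.

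PLAC9 was the gene most like FBP1, at a difference of 0.53 where the median gene differed by 1.67. ISG12(A) followed at 0.58, CDH11 at 0.59, DCN at 0.59 and NCEH1 at 0.63. DCN, which encodes the matrix protein decorin, is among the fibroblast markers above. In libraries without FBP1 counts the log2 value compared here is set by the prior count of 2.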

How the data were processed

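Per the labels, polyA RNA of 16 samples was counted from 3′ libraries made of 25 ng total RNA, with unique molecular identifiers used by the authors to remove duplicate reads, and aligned with STAR 2.7.10b to susScr3. Annotation and strand setting are not given in the sources used here. The deposited values are the authors' raw counts per gene, without normalization, in 32 columns, 2 technical duplicates per sample. All 124000 values were even. Duplicates were added. Totals and intervals cover counting error only.

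Tests used edgeR 4.0.16 in R 4.3.3 (filterByExpr with a minimum count of 10 and minimum total of 15, TMM, robust glmQLFit, glmQLFTest) on the libraries of the groups compared, or on all 16 for the difference of state changes. The SE restates the test statistic. Benjamini-Hochberg adjustment ran over all genes tested. The fits were tested on simulated data. Of simulated log2 changes of 1, 66% were recovered for DMD over WT in PROL and 71% in DIFF. For DIFF over PROL this was 84% in DMD and 75% in WT, and 49% for the difference of state changes. Of log2 changes of 2, 88% to 95% were recovered. A gene not called may therefore still differ. The 3 members and all lists were chosen with earlier results of these data known. Named genes were the members, every pathway gene called in any fit, at most 3 called genes of each other list by smallest p in the genotype comparisons, isozyme pairs, and the 5 genes closest to each member. BRP44L, PHGK, the uncalled HK1, GPI and PFKM, genes named as too low to test or not analysed, and single markers fall outside this rule and were named after their values were seen. No cell type was assigned, and markers were used as counts and sums.

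The 2 states of an animal are paired by the labels. After subtraction of group means, the 2 libraries of an animal had correlations of 0.0998 to 0.172, and 8 of 8 matched best with their own animal. The main fits, also those between the states and of their difference, held no term for the animal. Replicate numbers of DMD and WT are shared numbers only. Alternatives were DESeq2 1.42.0, library size alone, no filter or a stricter one (20 counts in 4 libraries), halved counts, no RN18S, all 16 libraries, a replicate block and leaving out each replicate.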

Additional observations from a re-analysis of the deposited data

Results flagged for a closer look

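A gap test for a single distant library, which by chance flags about 1 in 20 groups, was run on 45 groups, those of PGAM2, TPI1 and FBP1 and those of other pathway genes with at least 20 counts in the group. It marked PFKM in WT DIFF replicate 3 as low at 29.8 CPM, GAPDH in WT PROL replicate 3 as high at 5357 CPM and ENO3 in DMD PROL replicate 3 as low at 533 CPM. It also marked FBP1 in DMD DIFF replicate 2 at 1.17 CPM and in DMD PROL replicate 3 at 1.16 CPM, each the only library of its group with FBP1 counts (2 counts). No group of PGAM2 or TPI1 was marked.

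The change with differentiation differed between the genotypes for ALDOC, by 2.09 on the log2 scale (DMD minus WT, edgeR adjusted p = 0.00579), and for PCK2, by 1.28 (edgeR adjusted p = 0.0105). These were 2 of 8 tested pathway genes, a share close to the 23.5% of all genes called for this difference. ALDOC rested on 8 to 64 counts per library.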

How the results depend on the processing

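Of the results that answer a comparison, 355 refits were taken as the same, 7 moved and 1 reversed. A count of calls was the same if its total stayed within a fixed factor of the main one, whatever its split by direction. A fold change of PGAM2, TPI1 or FBP1 was the same if its sign held and its shift was below its SD within groups. For other single pathway genes, 376 refits kept sign and call, 6 became called and 9 reversed. Library size alone moved the median gene by -0.15 (DMD over WT in PROL), 0.14 (DMD over WT in DIFF), -0.35 (DIFF over PROL in WT) and 0.28 (difference of state changes) on the log2 scale, which split the calls 122 higher and 264 lower in PROL (main 160 and 189), 387 and 267 in DIFF (308 and 335), 194 and 563 in WT (343 and 275) and 387 and 134 for the difference (215 and 262). On this scale the state change in WT was 1.40 for PGAM2, -0.73 for TPI1 and 1.97 for FBP1, the difference for TPI1 was 0.93, and 4 in place of 2 pathway genes were called for the difference, GAPDH and PGK1 added. GAPDH in PROL was -0.029 and ENO3 for the difference 0.092. Leaving out 1 library at a time, FBP1 in DIFF ran from -7.99 (without DMD replicate 2) to -5.39, and leaving out 1 animal its difference of state changes ran from -4.90 (without DMD replicate 2) to 0.31 (without DMD replicate 3), since each of these animals holds the only FBP1 counts of its DMD group. The cause of the other changes was not tested. Uncalled values in PROL that changed sign ran from -0.53 to 0.061 for ALDOC and -0.21 to 0.25 for PCK2, and the ENO3 difference from -0.52 to 0.26 (without WT replicate 4). The replicate block turned the sign of PCK2 in PROL (0.005) and changed no call of the pathway genes. With the block, 629 genes were called between the genotypes in DIFF and 326 in PROL, where it is the replicate number and pairs no animals. In the state comparisons and their difference the block is the animal. With it, 304 genes were called higher and 241 lower in DMD (main 302 and 234). In WT these were 358 and 282, and for the difference 230 and 262. FBP1 in PROL and FBP1 between the DMD states were fitted only without the filter or with all 16 libraries. Of PGAM2, TPI1 and FBP1, depth limits FBP1, with 158 counts in all.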
